A study of Rattus norvegicus with 8 samples.

Results

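Candesartan was compared with vehicle in the brains of rats that had only a sham operation, so the comparison concerned the drug without a stroke. It rested on 4 of the 8 arrays of the series, 2 of sham-operated rats given candesartan and 2 of sham-operated rats given vehicle, taken by their source labels. All rats were male Wistar, 7 weeks old, and weighed 160 to 200 g. Candesartan was injected at 0.1 mg/kg and the vehicle was 0.9% NaCl, each given 2 times a day for 5 days before surgery. The labels gave the injections as subcutaneous, except on sham candesartan 2, whose label named no route. Total RNA came from a segment of the right hemisphere 2 h after the sham operation, and each array (Affymetrix RAE 230A) held a pool of 2 rats. The arrays of vehicle-treated rats with a 90 min occlusion of the middle cerebral artery (MCAO) and reperfusion served to estimate the spread, and those of candesartan-treated MCAO rats served to set the sham difference beside the one after MCAO. On 1 of these, MCAO candesartan 2, the treatment label stated no pretreatment and the group came from the source label. With pools of 2 rats and 2 pools a group, no single rat was measured, and an exact permutation test of 2 arrays against 2 cannot go below p = 0.333 (two-sided).

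Angiotensin II is cut in steps from angiotensinogen, raises blood pressure and drives thirst, vasopressin release and sympathetic outflow through its AT1 receptor, which signals through Gq proteins and phospholipase C. The brain makes its own components: astrocytes are the main source of angiotensinogen, and AT1 receptors are concentrated in small hypothalamic and brainstem nuclei and around vessels. Candesartan occupies the AT1 receptor and leaves the AT2 receptor free, and long treatment with such blockers is known to raise circulating renin and angiotensin II.

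The tissue and surgery labels were checked first. Transcripts of neurons, astrocytes and oligodendrocytes were bright on all 4 sham arrays: the synaptic protein gene Snap25 had signals of 55509 to 73519, the astrocyte filament gene Gfap 18163 to 22651 and the myelin gene Mbp 105203 to 117269. Fos, the immediate early gene that marks recent activation, was at 955 and 965 with vehicle and at 755 and 852 with candesartan after sham, against 6332 to 10899 on the 4 MCAO arrays. The inducible heat shock gene Hspa1a was at 1147 to 1343 on the sham arrays and at 5794 to 29810 after MCAO. The median signal over all probe sets was 1259 and 1292 on the vehicle arrays and 1346 and 1320 on the candesartan arrays of sham rats, while the trimmed means lay within 0.000426% of each other. The 3′/5′ signal ratios of the control transcripts, which rise as RNA degrades, were 1.57 to 2.02 with vehicle and 1.74 to 1.82 with candesartan for beta-actin, and 1.05 to 1.11 over all 4 arrays for GAPDH. For hexokinase they were 2.07 and 2.48 with vehicle and 2.24 and 2.63 with candesartan, highest on sham candesartan 2; its part in the differences of that array was not tested.

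Of 15866 probe sets without controls, 10310 passed the signal filter (above 916, the 40th percentile of all values, on at least 2 arrays) and were tested, and 8671 of them carried 1 gene symbol each, for 7466 genes. No probe set passed limma's test at an adjusted p under 0.05 (0 of 10310, 0%), and the smallest adjusted p was 0.179. At an unadjusted p under 0.05 there were 667 probe sets (6.47%), 376 higher (3.65%) and 291 lower (2.82%) with candesartan. The excess of higher ones depended on the scaling: there were 313 higher and 305 lower with quantile scaling, 320 and 338 with median-centred arrays, and 311 and 328 with cyclic loess. The arrays of the groups did not overlap for 3487 probe sets (33.8%): both candesartan arrays lay above both vehicle arrays for 1952 (18.9%) and below them for 1535 (14.9%). The count of 0 became 13 when sham candesartan 1 was left out and 1 when sham candesartan 2 was left out.

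Array against array, the groups differed about as much as the pools of 1 group did. Over all tested probe sets the median absolute log2 difference was 0.10 between the means of the sham groups, while it was 0.13 between the 2 vehicle pools and 0.15 between the 2 candesartan pools. A mean of 2 arrays varies less than 1 array, so the value between means is not a like measure. Between single arrays, a candesartan array against a vehicle array gave 0.12 to 0.15. More than 2-fold differences separated the 2 vehicle pools at 20 probe sets, the 2 candesartan pools at 57, and a candesartan from a vehicle array at 29 to 49. The median half-width of the 95% interval was 0.30 (log2), and the interval lay within 2-fold in either direction for 10158 probe sets (98.5%) and within 1.5-fold for 8496 (82.4%). In simulated data of the same size, with 67 changed probe sets at each of these sizes, 94% of 2-fold and 49.3% of 1.5-fold changes were called. The adjusted p depends on how many probe sets change, and 159 true changes were called there against 0 probe sets here. These shares therefore do not give the chance of calling a few changes in the real data. Here 5 probe sets had an absolute log2 difference above 1, and none of them passed.

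**Figure D1:**
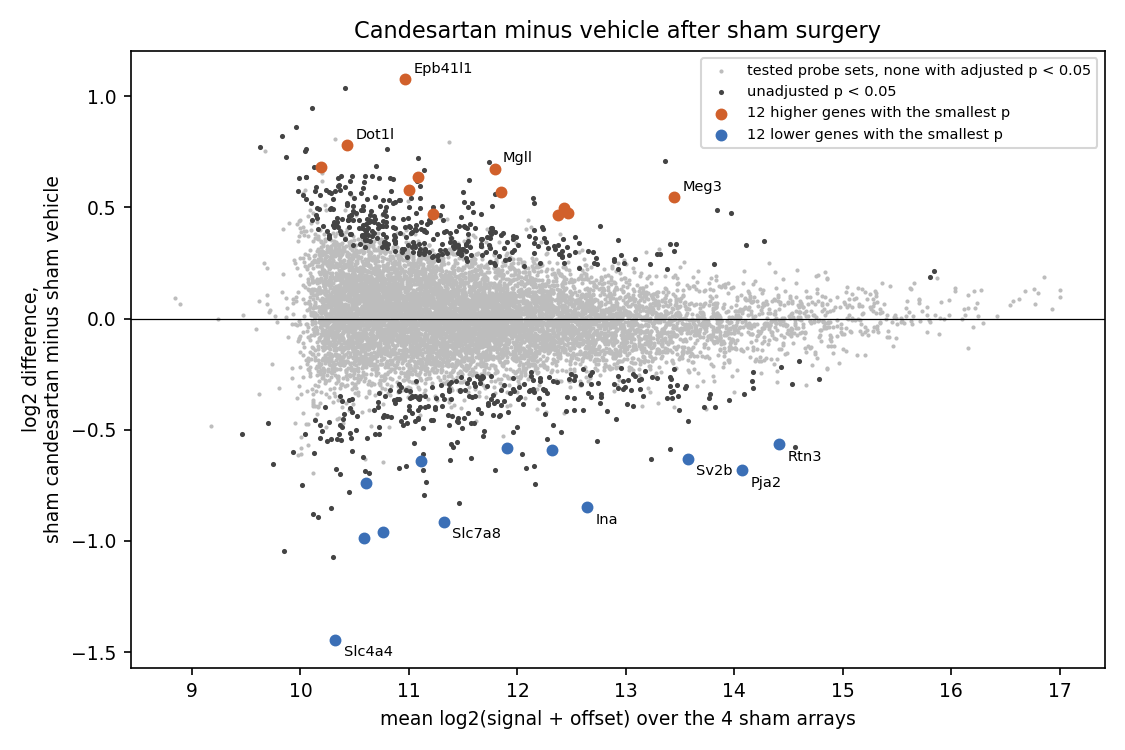
Log2 difference between sham candesartan and sham vehicle (vertical axis) against the mean log2(signal + offset) over the 4 sham arrays (horizontal axis) for the 10310 tested probe sets; dark points have an unadjusted p under 0.05 and coloured points are the 24 genes with the smallest p, 10 of them named. None of the points passed at an adjusted p under 0.05, and 5 lay beyond 1 on the log2 scale, with Slc4a4 at -1.44 and Epb41l1 at 1.08.

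All log2 differences here are candesartan minus vehicle, taken on log2(signal + 369.9), where the offset is the 20th percentile of the table, so those of dim probe sets are compressed. Genes of the renin-angiotensin system are described first, because the drug acts on it. Of 23 listed genes 17 had a probe set, 11 were tested and 6 stayed below the filter. None of the 11 passed at an adjusted p under 0.05, and 1, Agt, had an unadjusted p under 0.05, where 5.92% of all tested genes did (3.4% higher and 2.52% lower). Over the genes tested (1 probe set each) the difference was above 0 for 52.7% and below 0 for 47.3%, with a median of 0.01, and 8 of the 11 members were above 0, with a median of 0.06.

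Agt, the angiotensinogen gene and so the source of all angiotensin peptides, had signals of 8797 and 10142 with vehicle and of 8928 and 5639 with candesartan. Sham candesartan 2 was the low array, while sham candesartan 1 lay within the vehicle range, so the groups overlapped. The difference was -0.39 ± 0.18 (SE; 95% interval -0.79 to -0.00; unadjusted p = 0.0496 and adjusted p = 0.77 by limma). It was -0.71 without sham candesartan 1 and -0.08 without sham candesartan 2. Astrocyte markers as a list had a per-array median of 0.06 on sham candesartan 1 and -0.08 on sham candesartan 2, relative to the vehicle mean; their part in the value of Agt was not tested. In bulk tissue, fewer cells of a type and less RNA per cell cannot be told apart, here and for every marker that follows.

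The peptidases that form and break down angiotensins showed small differences. Ace, the angiotensin-converting enzyme that makes angiotensin II, was at 1122 and 1182 with vehicle and at 1259 and 1106 with candesartan, a difference of 0.03 ± 0.15 whose sign turned under quantile and cyclic loess scaling. Anpep (aminopeptidase N), which trims angiotensin III, was at 716 and 862 with vehicle and at 1103 and 1073 with candesartan. Both candesartan arrays were higher, by 0.33 ± 0.17 (adjusted p = 0.817 by limma). Rnpep, aminopeptidase B, was also higher on both arrays, at 5272 and 6085 against 5099 and 4522, a difference of 0.22 ± 0.12 (adjusted p = 0.823 by limma). These were the only 2 of the 11 members whose groups did not overlap (18.2%, against 33.3% of all tested genes). Enpep, the aminopeptidase A that turns angiotensin II into angiotensin III, differed by 0.15, with 908 and 694 against 1122 and 752. The oligopeptidase genes Nln, Prep and Thop1, whose enzymes can make or cleave shorter angiotensins, differed by 0.13, 0.04 and -0.12. Ctsd, the lysosomal aspartic protease cathepsin D, differed by 0.07.

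Among the receptors, Mas1, the receptor for angiotensin-(1-7), was at 1599 and 1155 with vehicle and at 1224 and 1043 with candesartan, a difference of -0.21 ± 0.16. Agtrap, which encodes a protein that binds the AT1 receptor and promotes its internalisation, was at 1384 and 1610 against 1613 and 1534, a difference of 0.06. The genes of the angiotensin receptors themselves stayed below the filter. The 2 probe sets of Agtr1a, the main AT1 receptor gene of rodents, read 79 to 339 with vehicle and 100 to 424 with candesartan. Agtr1b, its second copy, read 223 and 327 against 361 and 230, and the 2 probe sets of Agtr2, the AT2 receptor gene, read 179 to 631 against 188 to 409. Without the filter the differences of these 5 probe sets ran from -0.29 to 0.04 with 95% intervals that reached down to -0.71 and up to 0.44, so a change of these receptors was not detectable in this tissue segment at this signal. Of the peptidases below the filter, Lnpep, whose product is the insulin-regulated aminopeptidase that binds angiotensin IV, had 1 probe set at 185 and 249 with vehicle and at 422 and 380 with candesartan. That difference was 0.40 ± 0.13 without the filter (adjusted p = 0.711 by limma), while its other probe set, at 53 to 80 on the 4 arrays, differed by 0.07. Mme (neprilysin) and Cma1 (chymase) differed by 0.04 and -0.11.

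**Figure D2:**
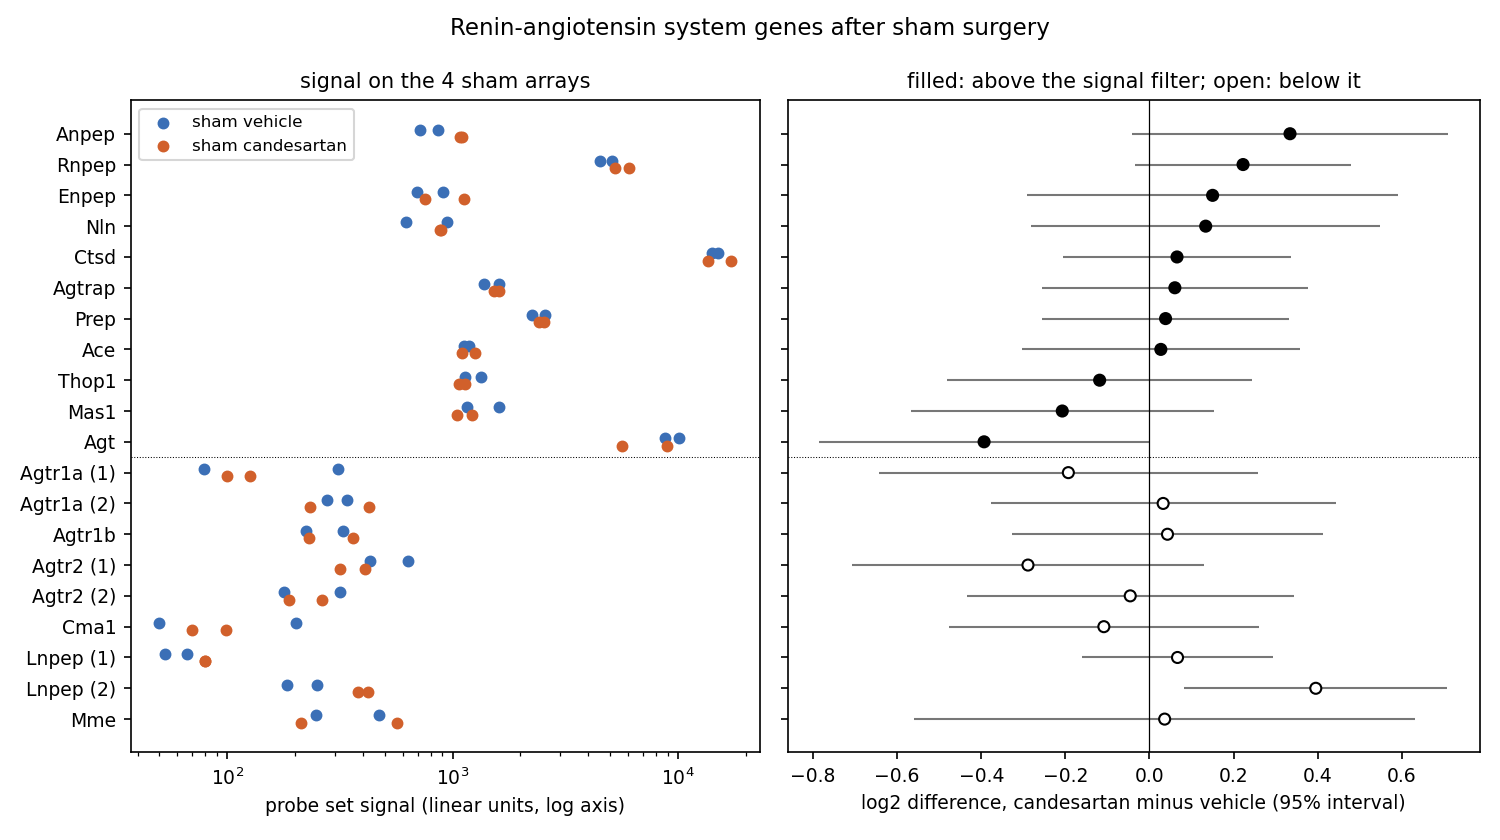
Renin-angiotensin genes on the 4 sham arrays, as probe set signal on a log axis (left) and as the log2 difference between candesartan and vehicle with its 95% interval (right); open symbols are probe sets below the signal filter, and numbers in brackets separate probe sets of 1 gene. The interval of Agt runs from -0.79 to -0.00, the other 10 tested genes have intervals that include 0, and the receptor genes Agtr1a, Agtr1b and Agtr2 read at most 631.

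Downstream of the AT1 receptor, 30 listed signalling genes were tested and none passed. Of these, 18 were above 0, and 8 were higher and 5 lower on both candesartan arrays (43.3%, against 33.3% of all tested genes), with a median of 0.06. Plcb3, a phospholipase C that Gq proteins activate, had the list's largest difference, 1.04 ± 0.40 (adjusted p = 0.724 by limma). Its vehicle arrays read 193 and 1238 and its candesartan arrays 1353 and 1843, so the size of that difference came from 1 vehicle array. Rgs4, a GTPase activator that shortens Gq signals, was at 12465 and 13282 with vehicle and at 13889 and 16877 with candesartan, a difference of 0.24 ± 0.11. Prkce, a protein kinase C of the same pathway, was lower on both candesartan arrays, at 5383 and 4749 against 6267 and 5972, a difference of -0.26 ± 0.11. The Gq genes Gnaq and Gna11 differed by 0.08 and -0.01, and the arrestin gene Arrb2 by -0.29.

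Of 45 listed vasoactive peptides, their receptors and catecholamine enzymes, 14 were tested, 10 were above 0 and 4 did not overlap between the groups (28.6%, against 33.3% of all tested genes). Th, tyrosine hydroxylase, the rate-limiting enzyme of catecholamine synthesis, read 2520 and 2694 with vehicle and 2288 and 737 with candesartan. Sham candesartan 2 alone was far below the other 3, and the difference was -0.79 ± 0.31 (adjusted p = 0.724 by limma). With sham candesartan 1 left out it was -1.43 and passed (adjusted p = 0.0118 by limma), so the call rests on which pool is kept. Ramp2, a partner of the adrenomedullin receptor, was lower on both candesartan arrays, at 2568 and 2475 against 2831 and 2945, a difference of -0.17 ± 0.11.

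The genes nearest to the threshold are named next; they were picked for their small p in this comparison, so their sizes are a description and none of them passed. The 24 genes, 12 each way, had adjusted p from 0.179 to 0.528 by limma, and the groups did not overlap for any of them. For 11 of the 12 higher genes both MCAO vehicle arrays, without the drug, also lay above both sham vehicle arrays. For 8 of the 12 lower genes both lay below them. Both comparisons share the sham vehicle arrays, whose part in these differences was not tested, and the share over all tested genes was not counted. Among the higher ones, Epb41l1, which encodes a membrane skeleton protein, a link between neuronal membrane receptors and the actin cytoskeleton, read 1011 and 1001 with vehicle and 2690 and 2391 with candesartan. The difference was 1.08 ± 0.17 (95% interval 0.71 to 1.45; adjusted p = 0.179 by limma). Mgll encodes monoacylglycerol lipase, which breaks down the endocannabinoid 2-arachidonoylglycerol, and its leading probe set read 2394 and 2471 with vehicle against 4001 and 4208 with candesartan, a difference of 0.67 ± 0.12.

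Chromatin and transcription factor genes were in this higher group too. Dot1l, a histone methyltransferase, read 681 and 687 with vehicle and 1418 and 1463 with candesartan, a difference of 0.78 ± 0.17. Pou2f1, the POU-domain factor Oct-1, read 545 and 555 against 1157 and 1057, a difference of 0.68 ± 0.17. Both were dim with vehicle, below the filter value of 916, and above it with candesartan. Meg3, an imprinted long noncoding RNA, read 8018 and 9794 with vehicle and 12006 and 14324 with candesartan, a difference of 0.55 ± 0.13. Kcnip3, a calcium-binding protein that acts both on Kv4 potassium channels and as the repressor DREAM, read 4771 and 4125 against 6343 and 6262, a difference of 0.47 ± 0.11. The other higher genes were Tmem138 (0.64), the ganglioside sialyltransferase St6galnac6 (0.57), the adaptor She (0.58), Secisbp2l (0.50), the endoplasmic reticulum oxidase Ero1b (0.47) and Cnpy2 (0.46).

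Genes of synapses, neurites and membrane transport were among the 12 lower ones. Slc4a4, the sodium bicarbonate cotransporter NBCe1 of astrocytes, read 1321 and 2270 with vehicle and 463 and 353 with candesartan on its leading probe set, a difference of -1.44 ± 0.22 (95% interval -1.94 to -0.95; adjusted p = 0.179 by limma). It was the largest difference of all tested probe sets. Sv2b, a glycoprotein of synaptic vesicles, read 15292 and 14233 with vehicle and 9724 and 9095 with candesartan, a difference of -0.63 ± 0.09, and it had the smallest p of all (4.77e-05; adjusted p = 0.179 by limma). Ina, the neuronal intermediate filament alpha-internexin, read 8409 and 8049 against 5284 and 3664, a difference of -0.85 ± 0.15.

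Pja2, a ubiquitin ligase that acts on regulatory subunits of protein kinase A, read 22919 and 20015 with vehicle and 14351 and 12147 with candesartan, a difference of -0.68 ± 0.11. Rtn3, a reticulon that shapes the endoplasmic reticulum, read 27865 and 24578 against 16945 and 18192, a difference of -0.57 ± 0.09. Slc7a8, a neutral amino acid exchanger, read 2937 and 3377 with vehicle and 1725 and 1298 with candesartan, a difference of -0.91 ± 0.16. Epha5, an ephrin receptor of axon guidance, read 2546 and 1650 against 969 and 791, a difference of -0.96 ± 0.18, and Gnaz, a G protein alpha subunit that inhibits adenylyl cyclase, differed by -0.64. Loricrin, a protein of the cornified skin envelope, read 1784 and 1809 with vehicle and 577 and 889 with candesartan, a difference of -0.99. The remaining lower genes were the zinc finger gene Zfp292 (-0.74), the endoplasmic reticulum disulfide reductase Dnajc10 (-0.59) and Atxn7l3b (-0.58).

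**Figure D3:**
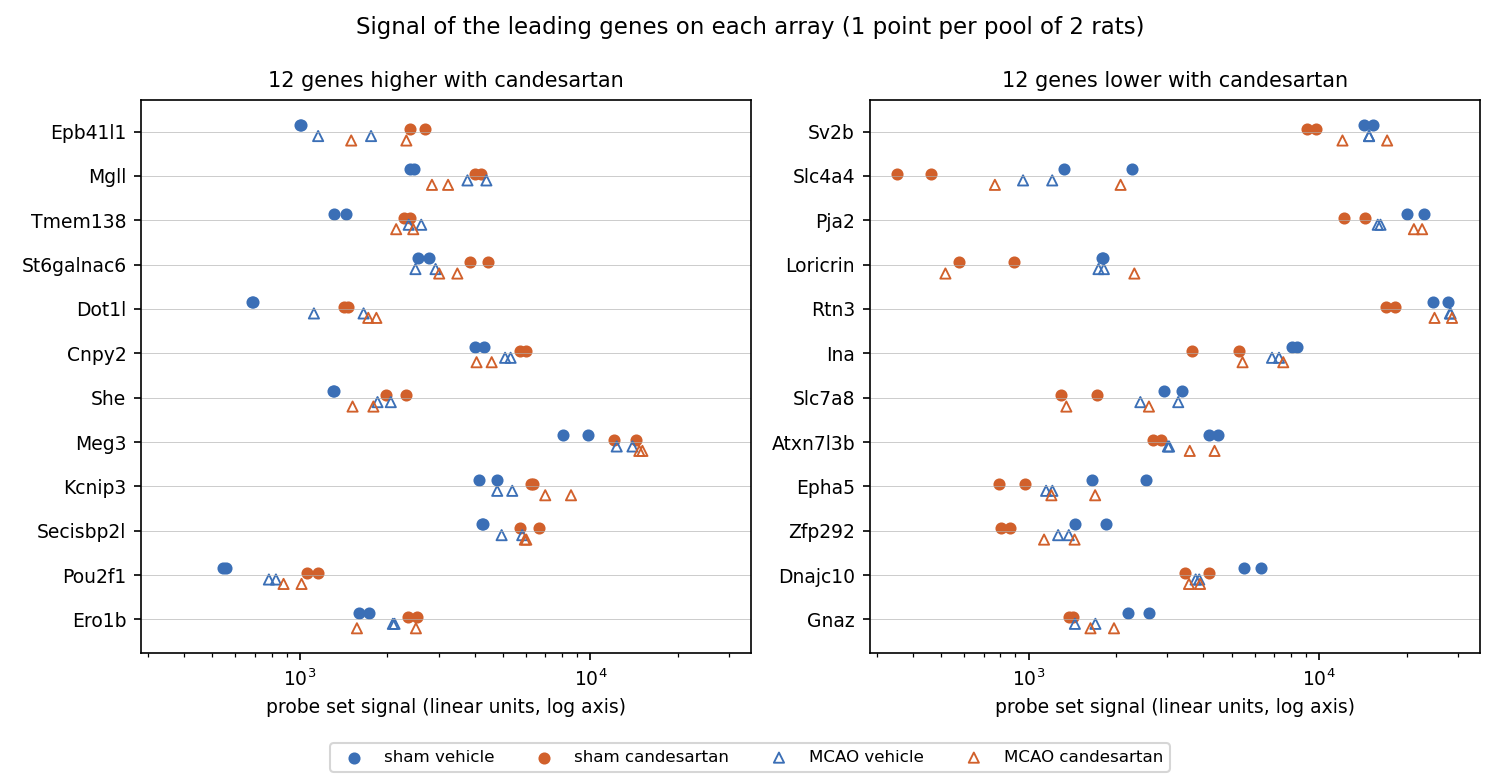
Probe set signal (log axis) of the 24 genes with the smallest p in the sham comparison, 12 higher and 12 lower with candesartan, on each of the 8 arrays; circles are sham pools, triangles MCAO pools, blue is vehicle and orange candesartan. The sham groups stand apart for each gene because the genes were chosen for it, while the MCAO groups overlap or cross for many, as for Mgll, which is higher with candesartan after sham and lower after MCAO.

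The array measures 13 of these 24 genes with further probe sets, 17 in all, which gave another reading of the same gene's transcripts from the same RNA. Of the 17, 7 had the sign of the leading probe set and 10 the opposite sign. At an unadjusted p under 0.05 there were 3, and 1 of these 3 had the same sign. That 1 was Meg3, whose other probe set read 15372 and 15287 with vehicle and 19647 and 19148 with candesartan, a difference of 0.33 ± 0.09. Both others belonged to Mgll and were lower with candesartan, by -0.44 ± 0.16 and -0.35 ± 0.12, against the 0.67 of the leading one. For Slc4a4 the other probe set read 8499 and 8320 against 8878 and 8514, a difference of 0.05 with a 95% interval of -0.16 to 0.26, beside -1.44 for the leading one. Ina differed by -0.03 on its other probe set (95% interval -0.23 to 0.16), Pja2 by 0.13, Sv2b by -0.15 and Rtn3 by 0.11 and -0.07. For Epb41l1 the other probe sets differed by -0.01 and 0.06. Probe sequences were not used here, so which transcript forms these probe sets read was not determined.

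**Figure D4:**
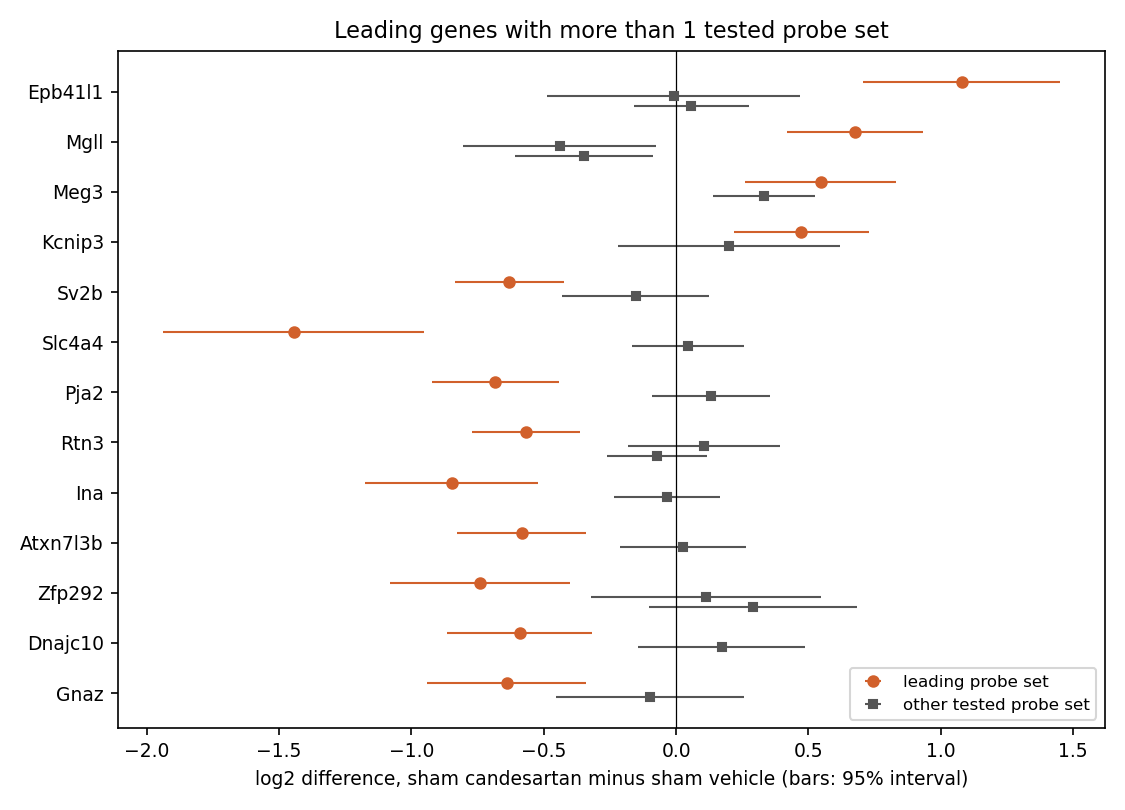
Log2 difference between sham candesartan and sham vehicle, with its 95% interval, for the 13 leading genes that have more than 1 tested probe set; orange circles are the probe sets the genes were chosen by and grey squares their other probe sets. Of the 17 grey squares 10 lie on the other side of 0 from their orange circle, and Meg3 is the gene where both intervals exclude 0 on the same side.

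The same question was then put to all genes with at least 2 tested probe sets, a search made after values had been seen. Of these 1020 genes, 150 (14.7%) had a probe set at an unadjusted p under 0.05. At least 2 such probe sets were higher for 5 genes (0.49%): Meg3, the splicing-speckle proteins Pnn and Pnisr, Akap8l and the pentose phosphate enzyme Rpia. At least 2 were lower for 6 (0.588%): the astrocyte water channel Aqp4, the neuronal calcium sensor Hpcal4, Lingo2, the synaptic vesicle protein Vamp1, Zfp91 and Mgll. Such probe sets pointed in opposite directions for 4 genes (0.392%), Mgll, Mrpl40, Mrpl57 and Nsd2. None of these probe sets passed at an adjusted p under 0.05.

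Aqp4 was lower on both candesartan arrays with all 3 of its probe sets. They read 3908 and 3515 against 3212 and 2168, 20673 and 18876 against 17369 and 15962, and 3061 and 3419 against 2834 and 2985. The differences were -0.44 ± 0.16, -0.24 ± 0.09 and -0.14 ± 0.13. After MCAO, in other pools, the candesartan arrays were again both below the vehicle arrays for all 3, by -0.26, -0.48 and -0.49. Meg3 was likewise higher with candesartan after MCAO, by 0.18 and 0.32, again without overlap. The adjusted p in the MCAO comparison were 0.253 to 0.524 for Aqp4 and 0.274 and 0.605 for Meg3 by limma, so these did not pass either. Hpcal4 went the other way: its 2 probe sets differed by -0.47 and -0.44 after sham and by 0.45 and 0.68 after MCAO, with no overlap in any of these 4 comparisons. Pnn differed by 0.34 and 0.33 after sham and by -0.42 and -0.34 after MCAO. Groups that do not overlap were common: 33.8% of all tested probe sets had them after sham, and the share after MCAO was not counted. Probe sets of 1 gene read the same RNA, and these genes were picked after values had been seen, so the passage is a description.

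Markers of brain cell types and regions were examined as 14 lists, and no member passed at an adjusted p under 0.05. Each list is set against all tested genes, of which 18.8% were higher and 14.5% lower on both candesartan arrays. No list was set against genes of like brightness. Of 17 pyramidal neuron markers 14 were below 0 and 6 were lower on both arrays, with a median of -0.08. The neuronal pentraxin receptor Nptxr read 13115 and 12794 with vehicle and 10241 and 10632 with candesartan, a difference of -0.30 ± 0.10, and the secreted pentraxin Nptx1 differed by -0.41 ± 0.14. The thyroid hormone-binding protein Crym differed by -0.45, with 9798 and 7542 for vehicle and 4986 and 7682 for candesartan, and its groups overlapped. Pan-neuronal markers had 11 of 16 below 0 and a median of -0.08, led by the splicing factor Rbfox3 (NeuN), which read 8131 and 7028 against 6406 and 5108, and by the medium neurofilament Nefm, which differed by -0.28. Striatal medium spiny neuron markers had 13 of 17 above 0 and 4 higher on both arrays, with a median of 0.11, led by the striatal phosphodiesterase Pde10a at 10434 and 8987 against 12816 and 11293, a difference of 0.30 ± 0.12. Gng7, a striatal G protein gamma subunit, differed by 0.19.

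These shifts differed between the 2 candesartan pools. Relative to the vehicle mean, the median of the striatal list was 0.24 on sham candesartan 1 and -0.05 on sham candesartan 2, where the 2 vehicle arrays gave 0.04 and -0.04. The pyramidal list stood at -0.09 and -0.24, with 0.06 and -0.06 for vehicle. The pan-neuronal list stood at -0.06 and 0.02, so its median below 0 was not shared by sham candesartan 2. Meningeal and fibroblast markers were the most unlike between the candesartan pools, at 0.33 and -0.23, and their summed signal was 106938 and 68677 against 92319 and 74419 with vehicle. Their median difference between the groups was 0.01 (12 of 17 above 0), with a sign that turned under quantile, median and cyclic loess scaling. How much the cut of the tissue segment differed between pools was not measured, and its part in the gene differences was not tested.

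**Figure D5:**
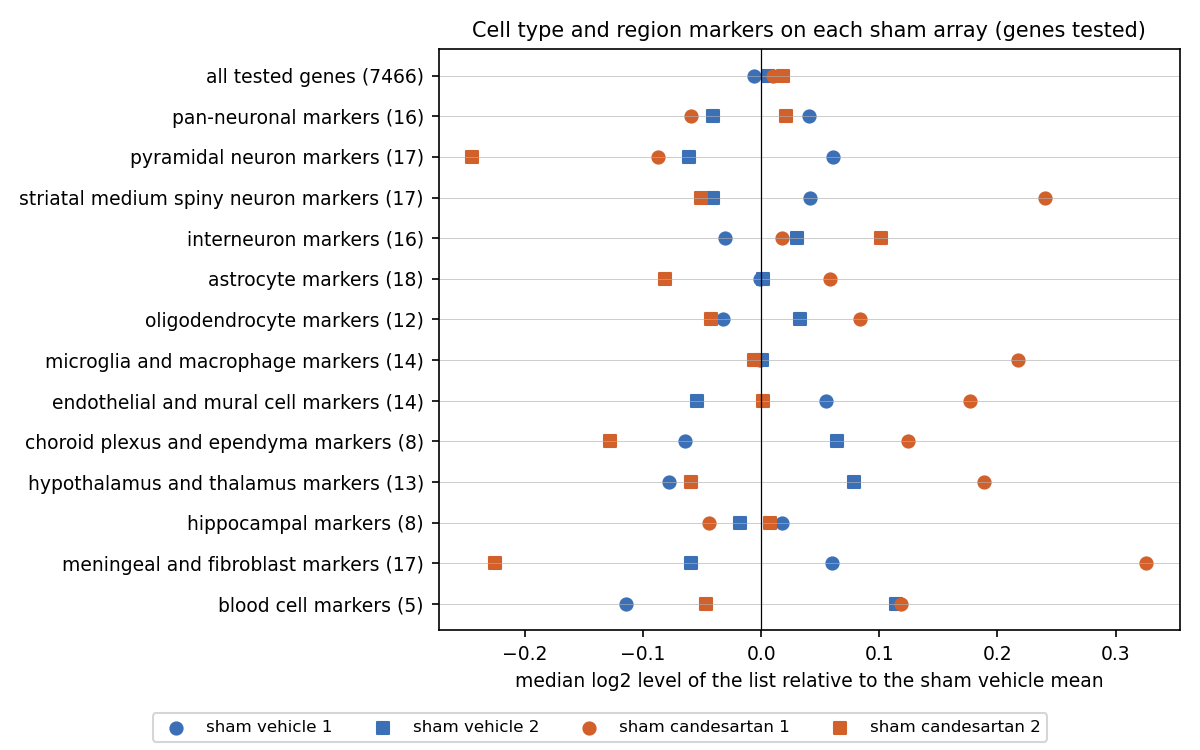
Median log2 level of each marker list except the pituitary one on the 4 sham arrays, relative to the mean of the 2 vehicle arrays, with the number of genes tested in brackets; blue is vehicle, orange candesartan, circles pool 1 and squares pool 2. For the meningeal list the candesartan pools lie at 0.33 and -0.23, on either side of both vehicle pools, while over all 7466 genes the 4 arrays lie within 0.02 of 0.

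Among glial and vascular markers, several lists were higher on sham candesartan 1 than on sham candesartan 2. Of 14 microglia and macrophage markers 12 were above 0, with a median of 0.06, at 0.22 on sham candesartan 1 and -0.01 on sham candesartan 2. Cd74, the invariant chain of class II antigen presentation, read 1188 and 1074 with vehicle and 2318 and 1481 with candesartan, a difference of 0.57 ± 0.18 (adjusted p = 0.651 by limma), while the microglial protease gene Ctss differed by -0.20. Endothelial and mural cell markers had 10 of 14 above 0 and 3 higher on both arrays, with a median of 0.10, at 0.18 and 0.00 on the candesartan arrays, and the endothelial receptor kinase Tie1 read 581 and 473 against 855 and 751. Astrocyte markers had 7 of 18 above 0 and a median of -0.0050, with the glutamate transporter Slc1a3 at -0.21. Oligodendrocyte markers had 6 of 12 above 0, and Mbp differed by 0.13 ± 0.06. Interneuron markers had 10 of 16 above 0 (median 0.06; 0.02 and 0.10 on the candesartan arrays) and hippocampal markers 3 of 8 (median -0.04; -0.04 and 0.0071), so these lists were lower on sham candesartan 1.

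Markers of the hypothalamus and thalamus had 8 of 13 above 0 and a median of 0.02. Pmch, the melanin-concentrating hormone gene of the lateral hypothalamus, read 6272 and 9776 with vehicle and 12507 and 13625 with candesartan, a difference of 0.71 ± 0.18 (adjusted p = 0.528 by limma). The list's per-array median was 0.19 on sham candesartan 1 and -0.06 on sham candesartan 2, and its part in the value of Pmch was not tested. Of 8 choroid plexus and ependyma markers 4 were above 0, with a median of 0.01 that turned negative with median-centred arrays, and the water channel Aqp1 differed by 0.31. Of 5 blood cell markers 3 were above 0 (median 0.06), with the haemoglobin gene Hba-a3 at 7515 and 10086 against 10752 and 11108. Of 2 pituitary markers both were above 0.

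Genes of transmission and excitability were taken as families. Of 27 glutamate and GABA receptor subunits 14 were above 0, and 4 were higher and 7 lower on both candesartan arrays (40.7%, against 33.3% of all tested genes). The AMPA receptor subunits Gria2, at 17881 and 14757 with vehicle and 13890 and 10780 with candesartan, and Gria1, at 2204 and 1987 against 1524 and 1577, differed by -0.40 ± 0.13 and -0.36 ± 0.13. Grin2c, an NMDA receptor subunit, differed by 0.41 ± 0.13, with 1971 and 2480 against 3168 and 2942. Of 64 voltage-gated channel genes 32 were above 0, and 14 were higher and 7 lower on both arrays (32.8%, near the 33.3% of all tested genes). The sodium channel Scn3a and the calcium channel Cacna1d differed by 0.49 and 0.36. Both family medians were within 0.001 of 0 and turned negative under quantile, median and cyclic loess scaling. Of 158 solute carriers 87 were above 0 (median 0.02), with the phosphate carrier Slc20a2 at 0.53 and the zinc carrier Slc39a13 at 0.36.

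Of 37 immediate early genes 19 were below 0, with a median of -0.05, and 4 were higher and 8 lower on both candesartan arrays (32.4%, near the 33.3% of all tested genes). Ier2 read 454 and 499 with vehicle and 228 and 213 with candesartan, Klf10 differed by -0.31, and the kinase-like gene Trib1 by 0.39, with 627 and 753 against 1011 and 1028. Clock genes had 9 of 16 below 0, and 6 were lower on both arrays, where 14.5% of all tested genes were, with a median of -0.07. The clock repressors Bhlhe40 and Bhlhe41 read 1787 and 2047 against 1159 and 1428 and 8257 and 8159 against 7472 and 5844, and the clock-output factor Tef differed by -0.52. The other 7 members were above 0, among them Clock, which was higher on both candesartan arrays by 0.31 ± 0.15. The hour of the day at which each pool was taken was not in the labels, and its part was not tested.

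Of 18 glucocorticoid targets 9 were above 0, with a median of 0.04. Their groups did not overlap for 10 (55.6%, against 33.3% of all tested genes), 6 higher and 4 lower. Nr3c2, the mineralocorticoid receptor, whose ligand aldosterone is released by angiotensin II, read 3313 and 2751 with vehicle and 2397 and 1871 with candesartan, a difference of -0.45 ± 0.14 (adjusted p = 0.662 by limma). Metallothionein Mt2A differed by 0.26. Heat shock proteins had 11 of 20 above 0 (median 0.01), with the chaperone Dnajb1 lower on both arrays by -0.23. Cytokines, chemokines and inflammatory mediators had 10 of 19 above 0 (median 0.01), with the transcription factor Nfkb1 at 0.34. The signs of these last 2 medians turned with median-centred arrays. Of 13 neurotrophic and growth factor genes 8 were above 0 (median 0.02), and Bdnf read 1345 and 1140 with vehicle against 900 and 781 with candesartan, a difference of -0.41 ± 0.19. Of 23 oxidative stress genes 13 were below 0 (median -0.04), and the peroxiredoxin Prdx6 read 11415 and 12341 against 9560 and 9186, a difference of -0.33 ± 0.10.

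Subunits of large complexes differed little. The 39 cytosolic ribosomal protein genes had a median of 0.02 and ran from -0.14 to 0.21, with Rpl37a the highest. The 73 respiratory chain subunits had a median of -0.02 and 46 were below 0. Cox7c of complex IV read 17343 and 16919 with vehicle and 20705 and 23246 with candesartan, a difference of 0.35 ± 0.10, while Uqcr10 of complex III and Ndufb6 of complex I differed by -0.34 and -0.26. Of 32 proteasome subunits 23 were below 0, with a median of -0.05.

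Finally, the difference after sham was set beside that of candesartan minus vehicle after MCAO, which used 4 other arrays. The 2 MCAO candesartan pools lay further apart than those of any other group, and were left out of the main fit for this reason. Their median absolute log2 difference was 0.23, with 183 probe sets over 2-fold, against 0.13 and 27 for the MCAO vehicle pools. MCAO candesartan 2 had the lowest mean correlation with the other arrays (0.951). The shares that follow carry this spread. Over all tested probe sets, 44.2% were above 0 after MCAO, so the higher and the lower group had unlike base shares. Of the probe sets at an unadjusted p under 0.05 after sham, 141 of the 376 higher ones (37.5%) were also above 0 after MCAO, against 42.3% of all probe sets above 0 after sham. Of the 291 lower ones 144 (49.5%) were below 0 after MCAO, against 53.6%. Among the leading genes the sign was the same for 7 of the 12 higher and 7 of the 12 lower. Across the 10310 probe sets Pearson's r between both differences was -0.05 and Spearman's rho -0.05, a description over probe sets that share arrays and are not replicates.

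The difference of the 2 effects was tested in a fit of all 8 arrays. It passed at 2 probe sets (0.0194%), H1f10 and Cyth3, with 914 (8.87%) at an unadjusted p under 0.05. H1f10, a linker histone gene, read 981 and 928 with vehicle and 235 and 310 with candesartan after sham, and 249 and 245 with vehicle and 1422 and 1337 with candesartan after MCAO. Cyth3, an exchange factor for ARF GTPases at the plasma membrane, read 1161 and 1118 against 457 and 443 after sham, and 400 and 610 against 1873 and 2108 after MCAO. For both genes the sham candesartan and MCAO vehicle pools were low and the other 4 pools high. Only the high pools were above the filter value, so both probe sets were tested because of them. The low signals of H1f10 lay below the offset of 369.9, where log2 differences are compressed, and those of Cyth3 lay above it. The sham differences were -1.05 ± 0.23 and -0.88 ± 0.20, and the effect after MCAO exceeded that after sham by 2.55 ± 0.30 and 2.32 ± 0.27 (adjusted p = 0.0217 for each by limma). Neither passed when any 1 of the 4 sham or 2 MCAO vehicle arrays was left out (adjusted p = 0.11 to 0.454 by limma). Sncb, the beta-synuclein gene, came next, at 5585 and 5832 against 4393 and 3633 after sham and 3869 and 3755 against 6891 and 6394 after MCAO, and did not pass (adjusted p = 0.0918 by limma).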

How the data were processed

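The authors deposited 1 linear signal intensity per probe set and array, in a table of the series. The submitters' processing notes name GCOS (Affymetrix); version and settings are not given in the sources used here. Because the arrays' 2% trimmed means were nearly equal, the deposited scaling was kept. Gene symbols came from the platform annotation (12789 probe sets with 1 symbol and 312 with several, controls included, and 2771 with none, controls left out). Probe sets with several symbols were left unnamed, and 12754 symbols were found in RefSeq's genes for GRCr8, which gave names alone.

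Groups came from the source labels. Of 15923 probe sets, 57 controls were left out, and those above 916.3 on at least 2 of 8 arrays were kept. Log2(signal + 369.9) was fitted with limma 3.58.1 in R 4.3.3 (group means, eBayes with a variance trend, Benjamini-Hochberg adjustment) to 6 arrays, the 4 sham and 2 MCAO vehicle arrays (3 residual degrees of freedom, 10.0 in all with those gained by pooling over probe sets). Values after MCAO and the difference of effects came from a fit of all 8. The method was tested on simulated data with independent noise for each probe set: 159 of 200 changed probe sets were called, with 6 false calls. Nothing in the labels says whether pools came from separate batches, and p-values measure the spread between these pools.

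For each of 30 gene lists, 1 probe set per gene was used, the brightest over the 6 arrays, and lists are described by counts and medians with no set test. Named genes were the 12 each way with the smallest p, all measured renin-angiotensin genes, up to 3 members per list with the smallest p and 5 checks. The other genes were named after their values were seen (Gnaq, Gna11, Arrb2, Clock and those of several probe sets or next to a count). The comparison, the lists and the rule were chosen with earlier results of these data known, and patterns for the ribosomal and proteasome lists were corrected later to leave out genes that are no subunits. Replicate numbers did not pair the samples: same-numbered pools had correlations of -0.10 to 0.03 in their deviations from group means. Alternatives covered scaling, offset, filter, variance model, arrays fitted, a replicate block and the omission of single arrays. Sequences of probes and proteins were not used here.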

Additional observations from a re-analysis of the deposited data

Results flagged for a closer look

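By limma's test of the difference itself over all 8 arrays, the candesartan effect differed between MCAO and sham for H1f10 and Cyth3 in the main setting. No probe set passed with the smaller offset, without the filter, with the stricter filter or with the replicate block. None passed without any 1 sham or MCAO vehicle array either. Both probe sets were above the filter value only in the groups where they were high, and the low signals of H1f10 were below the offset. For H1f10 the effect after MCAO minus that after sham was 2.55 on the log2 scale (adjusted p = 0.0217), with -1.05 after sham. For Cyth3 it was 2.32 (adjusted p = 0.0217), with -0.88 after sham and 1.44 after MCAO. Groups held 2 arrays each, so no array could be examined as an outlier within its group.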

How the results depend on the processing

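The number of probe sets called stayed at 0 under all 13 alternatives other than leaving out 1 array (among them a fit of the 4 sham arrays only and one of all 8), with smallest adjusted p from 0.151 to 0.693; leaving out 1 array gave 0 to 13. The 13, without sham candesartan 1, were all lower and included Ina, Pja2 and Th; the 1 without sham candesartan 2 was Slc3a1 (-1.18). The count at an unadjusted p under 0.05 and higher was 376, and 607 without the filter, 201 with the stricter filter, 210 with all 8 arrays and 222 to 489 without 1 array (222 without sham vehicle 1). The lower count of 291 ran from 154 (without sham vehicle 1) to 583 (without sham candesartan 1). With the replicate block 0 were called, with 349 higher and 275 lower at an unadjusted p under 0.05.

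The 2 calls for the difference of effects became 0 with the smaller offset, without the filter, with the stricter filter and with the replicate block, and 1 with the filter on the mean. They became 0 without any 1 sham or MCAO vehicle array, 7 without MCAO candesartan 2 and 296 without MCAO candesartan 1, which leaves 1 array in its group; the cause was not tested.

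Of 2368 recomputed gene values 23 changed sign, all of probe sets with differences under 0.2. Ace was -0.0215 and -0.0268 with quantile and cyclic loess scaling, Snap25 -0.0078 with cyclic loess, and with quantile scaling the other probe sets of Epb41l1 and Ina were 0.0027 and 0.0057. Without 1 array the ranges were -0.044 to 0.10 for Ace, -0.027 to 0.15 for Agtrap, -0.10 to 0.24 for Ctsd, -0.056 to 0.36 for Enpep, -0.071 to 0.34 for Nln, -0.045 to 0.12 for Prep, -0.19 to 0.22 for Snap25, -0.25 to 0.066 for Gfap and -0.11 to 0.010 for Hspa1a. For other probe sets of leading genes they were -0.053 to 0.11 (Atxn7l3b), -0.0016 to 0.35 (Dnajc10), -0.26 to 0.24 (Epb41l1), -0.24 to 0.047 (Gnaz) and -0.058 to 0.28 (Zfp292). Of 569 list medians 57 moved by more than the spread between pools. Without 1 array the medians of 23 of the 30 lists changed sign, among them renin-angiotensin (-0.023 to 0.103), pan-neuronal (-0.131 to 0.021), striatal (-0.051 to 0.241), ribosomal (-0.017 to 0.088), respiratory chain (-0.082 to 0.033) and proteasome genes (-0.092 to 0.00043). The number of arrays limits the precision, and the receptor genes were too dim to test.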

Other observations

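The sham difference depended on brightness. From the dimmest to the brightest of 5 bins of tested probe sets, 2062 each, the median log2 difference was 0.05, 0.04, 0.01, -0.0047 and -0.02. In the dimmest bin 103 probe sets were higher and 46 lower at an unadjusted p under 0.05, and in the brightest 32 were higher and 68 lower. After cyclic loess scaling, which levels such a trend by construction, the 5 medians lay between -0.0087 and 0.0011.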
